A study of Mus musculus with 24 samples.

Results

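The export of odorant receptors (ORs) from the endoplasmic reticulum (ER), and the unfolded protein response that the receptors engage there, were examined here through 9 genes of the 45706 in the table. The 9 genes were picked by symbol. They are *Rtp1*, *Rtp2* and *Reep1*, which serve receptor export, *Eif2ak3*, *Atf4*, *Atf5* and *Ddit3*, which form the PERK branch of the unfolded protein response, and *Hspa5* and *Xbp1*, which belong to ER folding and its transcriptional control. Bulk RNAseq was made from whole olfactory epithelium (OE) of 24 mice, all labelled as of mixed strain, 12 *WT* and 12 *iRhom2-/-*, with 3 mice per age and genotype at 5, 8, 10 and 30 weeks. The *iRhom2-/-* line is on a mixed background of 129Sv and C57BL/6. Its mice lack iRhom2 in every tissue, through a constitutive allele of *Rhbdf2* in which LacZ is driven by the gene's own promoter and the first exons are still transcribed, so the knockout is not restricted to olfactory sensory neurons (OSNs). The comparisons are *iRhom2-/-* against *WT* at 8 weeks (3 against 3), at 10 weeks (3 against 3), in the remaining libraries (6 against 6) and over all 24 libraries with these 3 sets as a term. The names of the remaining 12 columns give the genotype and a number from 7 to 12 only, so that set is called 5 or 30 weeks and the age of a single library is not known. In the labels the 8-week and the 10-week mice each have a core reference number of their own and the mice of 5 and 30 weeks share one, so the 3 sets differ in age and in that number, and these cannot be told apart.

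ORs are membrane proteins that fold in the ER of the OSN and reach the cilia with the help of the receptor-transporting proteins RTP1 and RTP2. When a newly chosen OR is made, it activates the ER kinase PERK, which slows translation in general and raises translation of the transcription factor ATF5. ATF5 drives maturation of the neuron and helps to hold the OR choice stable, and the signal is relieved as the OR leaves the ER. Much of this feedback acts on translation and on phosphorylation, which transcript levels do not show.

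Library totals lay between 25333822 and 48660394 counts, and a count of 3 corresponded to at most 0.118 CPM, the counts scaled to a common library total, far below the lowest level of any of the 9 genes (32.6 CPM, *Ddit3*). All CPM are TMM-normalized over the 24 libraries. *Rhbdf2*, the inactivated gene, fell from 21.8 ± 1.57 to 10.4 ± 2.10 CPM (mean ± SD, n = 12 each; log2 fold change -1.08, SE 0.087), and the genotypes did not overlap at any age. The OE label was met by the mature OSN (mOSN) markers, all 10 of which had counts, with summed levels from 8317 to 16178 CPM. Wherever a level in whole OE differs, fewer cells of a type and less RNA per cell cannot be told apart. A pair of libraries stood apart. *WT* mouse 1 of 8 weeks held 8332 CPM of 9 summed plasma cell markers against 452 and 480.4 CPM in the other *WT* mice of that age. *iRhom2-/-* mouse 2 of 10 weeks held 182526 CPM of 5 summed gland markers against 8732 and 9783 CPM in its group. Of that sum, 172890 CPM were the secreted protein gene *Bpifb9b*. The other 4 gland markers summed to 9637 CPM in that mouse against 8171 and 3785 CPM. Its 4 summed erythrocyte markers were also high, at 5598 CPM against 488 and 684 CPM. The main results that these libraries move are also given without them.

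Over all 24 libraries, *Hspa5* alone of the 9 genes passed, lower in *iRhom2-/-* (edgeR, quasi-likelihood fit, Benjamini-Hochberg adjusted p under 0.1). Of all 20763 genes tested in that comparison, 1.97% passed. At 8 weeks 1 of 9 passed (*Reep1*, higher), where 4.98% of 19335 genes passed, and at 10 weeks and at 5 or 30 weeks none of the 9 passed, where 0.197% and 1.07% of genes did. At an unadjusted p under 0.05, 8 of the 9 genes were past the threshold at 8 weeks (19.8% of all genes tested), 1 at 10 weeks (*Hspa5*, with 7.79% of all genes tested), 1 at 5 or 30 weeks (*Atf4*, with 14.2%) and 2 over all libraries (12.4% of all genes tested). The 8-week count is therefore read against an age at which many genes differed. DESeq2 called 7 of the 9 at 8 weeks, where it called 11.3% of all genes, and edgeR with RLE scaling called none, where it called 4.33%. DESeq2 called none of the 9 at 10 weeks or at 5 or 30 weeks, where it called 1.54% and 4.70% of all genes.

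**Figure D1:**
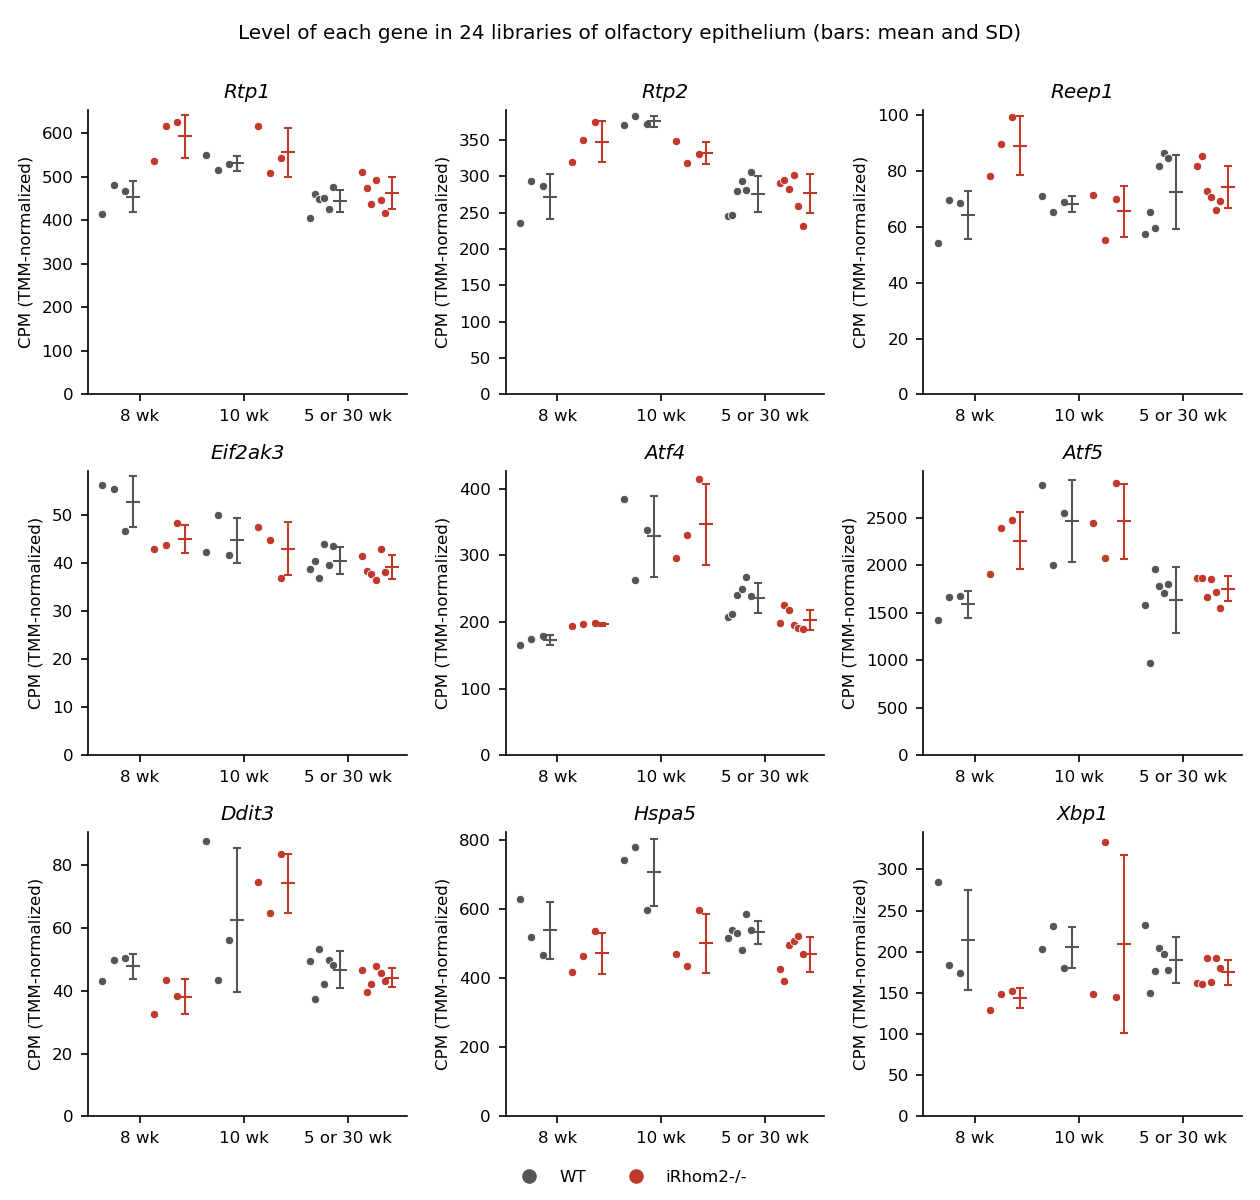
CPM (TMM-normalized, linear axes from 0) of the 9 genes in each library, by age set and genotype, with the mean and SD of each group beside its points (3 libraries per group at 8 and 10 weeks, 6 at 5 or 30 weeks). *Rtp1*, *Rtp2*, *Reep1*, *Atf4* and *Atf5* were higher, and *Xbp1* lower, in all 3 *iRhom2-/-* libraries of 8 weeks than in the *WT* libraries. At that age 26.7% of all genes tested did not overlap. The *Hspa5* mean was lower in *iRhom2-/-* in all 3 sets.

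The 3 genes of receptor export had higher levels in *iRhom2-/-* OE at 8 weeks. There 1 of them passed the test in edgeR (4.98% of all genes) and all 3 passed with DESeq2 (11.3% of all genes). None of the 3 passed in the other sets with either tool. *Rtp1* (chr16:23429133-23433960 in GRCm38, plus strand) encodes a single-pass membrane protein that carries ORs to the cell surface. At 8 weeks its level was 415, 481 and 468 CPM in *WT* and 536, 616 and 624 CPM in *iRhom2-/-*, a log2 fold change of 0.36 (SE 0.095, edgeR adjusted p = 0.107). Every *iRhom2-/-* library was above every *WT* library, but the adjusted p missed the threshold. It passed in 1 fit of all 24 libraries (edgeR adjusted p = 0.0729) and without *iRhom2-/-* mouse 1 (0.0872). At 10 weeks the levels were 549, 515 and 529.7 CPM in *WT* and 617, 507 and 543 CPM in *iRhom2-/-*, and the groups overlapped (log2 fold change 0.07, SE 0.12). At 5 or 30 weeks the *WT* libraries ran from 405 CPM to 475 CPM (median 449) and the *iRhom2-/-* libraries from 416 CPM to 509.8 CPM (median 459), again with overlap. Over all libraries *Rtp1* had a log2 fold change of 0.14 (SE 0.056, 95% interval 0.03 to 0.26, edgeR adjusted p = 0.278), with 9 of 12 *iRhom2-/-* libraries higher than the *WT* mean for their ages. An exact two-sided permutation test within the age sets, for *Rtp1* alone and not adjusted over genes, gave p = 0.0149.

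*Rtp2* (chr16:23925548-23932394, minus strand) is the close relative of *Rtp1* with the same role. At 8 weeks it measured 236, 294 and 286 CPM in *WT* and 319, 349 and 374 CPM in *iRhom2-/-* (log2 fold change 0.34, SE 0.10, edgeR adjusted p = 0.135). At 10 weeks the order was turned, with 370.5, 383 and 372 CPM in *WT* and 348, 318 and 330.1 CPM in *iRhom2-/-* (log2 fold change -0.18, SE 0.11, edgeR adjusted p = 0.780). The groups did not overlap at either age, and the directions were opposite. In the remaining set the medians were 281 CPM in *WT* (245 to 305) and 286 CPM in *iRhom2-/-* (231 to 302), and the log2 fold change was 0.01 (SE 0.081). The difference between the effects at 8 and 10 weeks was 0.53 on the log2 scale, with an unadjusted p of 0.0024 in edgeR's interaction test and an adjusted p of 0.231 over all genes, so it did not pass.

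*Reep1* (chr6:71707561-71810710, plus strand) encodes a protein that shapes ER membranes and was found with the RTP proteins as a factor that aids OR surface expression. At 8 weeks it measured 54.4, 69.6 and 68.6 CPM in *WT* and 78.1, 89.9 and 99.2 CPM in *iRhom2-/-*. All 3 *iRhom2-/-* libraries were above the *WT* libraries, and the log2 fold change of 0.45 (SE 0.11, 95% interval 0.19 to 0.72) passed the threshold with an edgeR adjusted p of 0.0939. The edgeR adjusted p was 0.107 with RLE scaling and 0.138 in 1 fit of all 24 libraries, where *Rtp1* passed in its place. Of the 6 fits without 1 library only that without *iRhom2-/-* mouse 1 kept the call, and the log2 fold change ran from 0.35 without *WT* mouse 1 to 0.52. At 10 weeks *Reep1* measured 70.9, 65.3 and 68.9 CPM in *WT* and 71.4, 55.2 and 70.1 CPM in *iRhom2-/-*. The log2 fold change was -0.06 at 10 weeks and 0.04 at 5 or 30 weeks, and the groups overlapped in both sets.

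Of the 7 further RTP and REEP genes in the table, 6 were abundant enough to be tested and none passed in any comparison in edgeR (2 of 6 had an unadjusted p under 0.05 over all libraries, where 12.4% of all genes did). Over all libraries *Rtp4*, an interferon-induced relative, was 10.8 ± 5.82 CPM in *WT* and 6.88 ± 1.83 CPM in *iRhom2-/-* (n = 12 each; log2 fold change -0.64, SE 0.24, edgeR adjusted p = 0.246), and *Reep5* had a log2 fold change of -0.14 (SE 0.066). *Reep2*, *Reep3*, *Reep4* and *Reep6* were between -0.06 and 0.04.

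**Figure D2:**
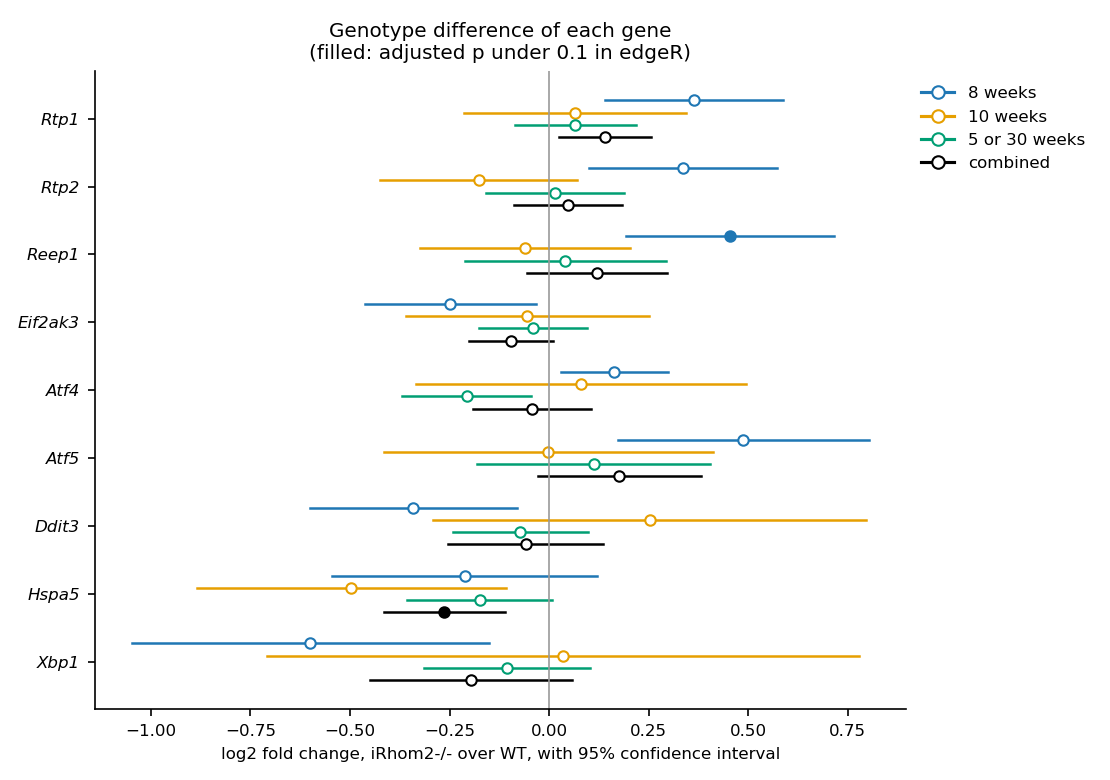
Log2 fold change of each gene, *iRhom2-/-* over *WT*, with its 95% confidence interval, at 8 weeks, at 10 weeks, at 5 or 30 weeks and over all 24 libraries with the age set as a term (combined). Filled points mark an edgeR adjusted p under 0.1, which only *Reep1* at 8 weeks (0.45) and *Hspa5* over all libraries (-0.26) reached.

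The sensor of the PERK branch did not pass the test in any set. *Eif2ak3* (chr6:70844515-70905245, plus strand) encodes PERK, the ER kinase that phosphorylates eIF2α. Its level was 56.2, 55.6 and 46.7 CPM in *WT* and 43.1, 43.8 and 48.3 CPM in *iRhom2-/-* at 8 weeks (log2 fold change -0.25, SE 0.091, edgeR adjusted p = 0.198). The highest *iRhom2-/-* library lay just above the lowest *WT* library. The 10-week levels were 42.5, 50.1 and 41.8 CPM in *WT* and 47.6, 44.8 and 37.0 CPM in *iRhom2-/-*, with no separation of the groups. The log2 fold change was -0.05 at 10 weeks, -0.04 at 5 or 30 weeks and -0.10 over all libraries (SE 0.051, edgeR adjusted p = 0.472). A short predicted transcript on the opposite strand, *Gm43292*, overlaps the *Eif2ak3* locus, holds 222 bases identical to it and had 69 counts in all against 36190 for *Eif2ak3*.

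Among the transcription factors downstream of PERK, *Atf4* and *Atf5* had higher and *Ddit3* lower mean levels in the *iRhom2-/-* libraries of 8 weeks. None of the 3 passed the test in edgeR, whereas all 3 passed with DESeq2, where 11.3% of all genes did. *Atf4* (chr15:80255184-80257541, plus strand) encodes the factor whose translation rises when eIF2α is phosphorylated. In the 8-week mice it measured 165, 174 and 179.8 CPM in *WT* and 194, 197 and 198 CPM in *iRhom2-/-*, without overlap (log2 fold change 0.16, SE 0.057, edgeR adjusted p = 0.181). The direction at 5 or 30 weeks was the opposite, from 208 to 268 CPM in *WT* (median 240.1) and from 190.3 to 226 CPM in *iRhom2-/-* (median 197), and all 6 *iRhom2-/-* libraries lay below the *WT* mean although the ranges overlapped (log2 fold change -0.21, SE 0.075, unadjusted p = 0.0163, edgeR adjusted p = 0.250). At 10 weeks *Atf4* was both higher and more variable, with 384, 264 and 338 CPM in *WT* and 296, 330.3 and 414 CPM in *iRhom2-/-*. Over all libraries its log2 fold change was -0.04 (SE 0.071), and with 8 and 10 weeks alone it was 0.12.

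*Atf5* (chr7:44812256-44816658, minus strand) encodes the factor through which the OR signal reaches the nucleus, and it was the most abundant of the 9 transcripts. The 8-week levels were 1428, 1670.1 and 1678 CPM in *WT* and 1913, 2396 and 2473 CPM in *iRhom2-/-*. The groups did not overlap, and the log2 fold change was 0.49 (SE 0.13, 95% interval 0.17 to 0.80, edgeR adjusted p = 0.117). It passed without *iRhom2-/-* mouse 1 (log2 fold change 0.58, edgeR adjusted p = 0.0733). The 10-week levels were 2849, 2004 and 2549 CPM in *WT* and 2443, 2079 and 2869 CPM in *iRhom2-/-*, with overlap and a log2 fold change of -0.00 (SE 0.18). In the libraries of 5 or 30 weeks *WT* ran from 976 to 1962 CPM (median 1742) and the *iRhom2-/-* libraries from 1555 to 1863 CPM (median 1792). The log2 fold change there was 0.11, and 0.0032 without the lowest *WT* library. *Atf5* overlaps *Nup62* and *Il4i1* on the opposite strand, and the strand setting of the counting is not given in the sources used here.

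*Ddit3* (chr10:127290774-127296288, plus strand) encodes CHOP, the factor induced late in prolonged ER stress. The 8-week libraries held 43.1, 49.996 and 50.4 CPM in *WT* and 32.6, 43.5 and 38.5 CPM in *iRhom2-/-* (log2 fold change -0.34, SE 0.11, edgeR adjusted p = 0.158). The highest *iRhom2-/-* library was just above the lowest *WT* library. At 10 weeks the levels were 87.9, 43.3 and 56.3 CPM in *WT* and 74.7, 64.8 and 83.7 CPM in *iRhom2-/-* (log2 fold change 0.25, SE 0.24, edgeR adjusted p = 0.864), and the spread among the *WT* mice exceeded the difference. The log2 fold change ran from 0.05 without *WT* mouse 2 to 0.57 without *WT* mouse 1. At 5 or 30 weeks the log2 fold change was -0.07 (SE 0.079). *Ddit3* overlaps *Mars* and *Gm4189* on the opposite strand and a second gene model of the same name on its own strand.

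Among the 20 other genes of the PERK branch, which holds its regulators and the targets of ATF4 and CHOP, 1 passed over all libraries, where 1.97% of all genes did. *Trib3*, a pseudokinase induced by ATF4 and CHOP that binds AKT, rose from 25.7 ± 8.1998 to 41.0 ± 14.4 CPM (n = 12 each; log2 fold change 0.64, SE 0.11, edgeR adjusted p = 0.0027). At 10 weeks it measured 34.1, 21.7 and 24.4 CPM in *WT* and 61.8, 59.5 and 58.9 CPM in *iRhom2-/-*, a log2 fold change of 1.17 (SE 0.16, edgeR adjusted p = 0.0636). That call was lost in 4 of the 6 fits without 1 library, those without *WT* mouse 2 or 3 or *iRhom2-/-* mouse 1 or 2 (edgeR adjusted p up to 0.369). The 8-week levels were 29.9, 42.3 and 36.2 CPM in *WT* and 43.6, 52.0 and 42.8 CPM in *iRhom2-/-*, without overlap but with an edgeR adjusted p of 0.225 (log2 fold change 0.34, SE 0.13, and from 0.21 without *WT* mouse 1 to 0.46 without *WT* mouse 2). Among the libraries of 5 or 30 weeks *WT* ran from 16.1 to 24.9 CPM (median 19.2) and the *iRhom2-/-* libraries from 23.0 to 36.8 CPM (median 27.7), with a slight overlap (log2 fold change 0.54, SE 0.13, edgeR adjusted p = 0.104). The difference at 5 or 30 weeks passed with DESeq2 (adjusted p = 0.0082) and in edgeR with RLE scaling, at least 10 counts in every library, the likelihood ratio test or 1 fit of all 24 libraries (adjusted p from 0.0289 to 0.0966), and in 1 of the 12 fits without 1 library. Each of the 12 *iRhom2-/-* libraries exceeded the mean of *WT* in its set. The call over all libraries was kept in each of the 24 fits without 1 library, in which the edgeR adjusted p ran from 0.0012 to 0.0070, and without both libraries that stood apart (0.0080). It was lost when the age set was left out as a term (log2 fold change 0.67, edgeR adjusted p = 0.151). With 8 and 10 weeks alone and a replicate block it was also lost (log2 fold change 0.77, edgeR adjusted p = 0.210).

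The other genes of the branch did not pass over all libraries. In that comparison 8 of the 20 genes had a positive log2 fold change, *Trib3* included, with a median of -0.07 against -0.00 for all genes tested. Without both libraries that stood apart the median was -0.08 and *Psat1* passed beside *Trib3*, where 2.44% of all genes passed. *Slc3a2*, which encodes the heavy chain of amino acid exchangers, had a log2 fold change of 0.07 (SE 0.044), and *Eif2ak4*, the eIF2α kinase of amino acid starvation, one of 0.10 (SE 0.063). *Asns*, the asparagine synthetase and an ATF4 target, had a log2 fold change of -0.40 (SE 0.20, edgeR adjusted p = 0.432). *Psat1*, of serine synthesis, and *Cebpb*, a transcription factor that partners with CHOP, were at -0.17 (SE 0.082) and -0.21 (SE 0.081).

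At 8 weeks the 2 genes of this branch that passed, of 20 and beside 4.98% of all genes, were lower in *iRhom2-/-*, and they are named after their values were seen. *Chac1*, a glutathione-degrading enzyme induced by ATF4, measured 18.01, 10.9 and 7.50 CPM in *WT* and 2.61, 2.59 and 3.01 CPM in *iRhom2-/-* (log2 fold change -2.17, SE 0.32, edgeR adjusted p = 0.0336). The highest of these levels was in *WT* mouse 1, and without that mouse the log2 fold change was -1.77. The call was lost without *WT* mouse 2, *iRhom2-/-* mouse 2 or *iRhom2-/-* mouse 3 (edgeR adjusted p up to 0.160). *Nupr1*, a stress-induced chromatin protein, measured 113, 85.5 and 85.8 CPM in *WT* and 59.0, 73.2 and 59.7 CPM in *iRhom2-/-* (log2 fold change -0.59, SE 0.14, edgeR adjusted p = 0.0848), and only the fit without *WT* mouse 1 kept its call (log2 fold change -0.44), with an edgeR adjusted p of up to 0.274 in the other 5. At 10 weeks *Chac1* had a log2 fold change of 0.96 (SE 0.38, edgeR adjusted p = 0.598) and *Nupr1* one of 0.19. That of *Chac1* was 0.52 without *iRhom2-/-* mouse 2, and it passed without *iRhom2-/-* mouse 3 (log2 fold change 1.29, edgeR adjusted p = 0.0956).

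A sequence feature was looked for in the promoters of this branch, a list that includes known targets of ATF4. The letters TGATGNAA, the core of the CARE element bound by dimers of ATF4 with C/EBP proteins, were searched on both strands of the RefSeq promoters for GRCm38.p6, which run from 250 bases before to 50 bases after each gene's start. They occurred in 6 of 19 promoters of the branch and in 3.97% of all 32851 promoters. Because the list includes targets of ATF4, a raised share follows from how it was built. *Trib3*, *Chac1* and *Nupr1* were among the 6, with *Asns*, *Atf3* and *Slc7a11*. The matches in the called genes, and that of *Asns* for comparison, are shown 5′ to 3′ on the strand of the match, with the searched letters in capitals.
Trib3: cgcccggcTGATGTAAacctgagc
Chac1: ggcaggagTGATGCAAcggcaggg
Nupr1: gccctgtcTGATGCAAtctggccc
Asns: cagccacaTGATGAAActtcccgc
The letters lie at chr2:152344039-152344046 in *Trib3*, just past its start, at chr2:119351049-119351056 in *Chac1*, at chr7:126625573-126625580 in *Nupr1* and at chr6:7693225-7693232 in *Asns*. These genes held the same letters and had log2 fold changes of either sign. Promoters were listed for 8 of the 9 genes picked by symbol, and none of those 8 holds the CARE letters.

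*Hspa5*, the chaperone gene among the 9, had a negative log2 fold change in each set, and its difference passed over all libraries only. *Hspa5* (chr2:34771970-34777547, plus strand) encodes BiP, the main HSP70 chaperone of the ER lumen, which also holds PERK, IRE1 and ATF6 inactive until unfolded protein draws it away. The 8-week libraries measured 629, 519.6 and 468 CPM in *WT* and 417, 465 and 535 CPM in *iRhom2-/-*, with overlap (log2 fold change -0.21, SE 0.14, edgeR adjusted p = 0.440, and -0.08 without *WT* mouse 1). At 10 weeks it measured 742, 779 and 596.2 CPM in *WT* and 469, 436 and 596.2 CPM in *iRhom2-/-*, where the lowest *WT* and the highest *iRhom2-/-* library were all but equal (log2 fold change -0.50, SE 0.17, unadjusted p = 0.0183, edgeR adjusted p = 0.553). At the remaining ages the *WT* libraries ran from 482 to 586 CPM (median 534) and the *iRhom2-/-* libraries from 390.3 to 522 CPM (median 483; log2 fold change -0.17, SE 0.085, edgeR adjusted p = 0.374).

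Over all libraries *Hspa5* fell from 577 ± 97.2 CPM to 478 ± 57.7 CPM (n = 12 each), a log2 fold change of -0.26 (SE 0.074, 95% interval -0.41 to -0.11, edgeR adjusted p = 0.0901). All 12 *iRhom2-/-* libraries lay below the *WT* mean of their age set, and an exact permutation test within the age sets, two-sided over 369600 arrangements, gave p = 0.00176 for this gene alone. The same test gave 0.0149 for *Rtp1* and between 0.0761 and 0.685 for the other 7 genes. The adjusted p is close to the threshold. It stayed under 0.1 in 9 of the 24 fits without 1 library and was 0.168 without both libraries that stood apart, where the log2 fold change was -0.21. With 8 and 10 weeks alone the log2 fold change was -0.35 and the edgeR adjusted p 0.297. Without the age set as a term the edgeR adjusted p was 0.240.

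*Hspa5* carries the best known ER stress response element (ERSE), which ATF6 and XBP1 bind with the factor NF-Y, and its promoter is shown for that reason. The 250 bases before its RefSeq start (chr2:34771840-34772089 in GRCm38.p6, plus strand) are given with the element, searched as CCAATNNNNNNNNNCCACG, in capitals.
Hspa5: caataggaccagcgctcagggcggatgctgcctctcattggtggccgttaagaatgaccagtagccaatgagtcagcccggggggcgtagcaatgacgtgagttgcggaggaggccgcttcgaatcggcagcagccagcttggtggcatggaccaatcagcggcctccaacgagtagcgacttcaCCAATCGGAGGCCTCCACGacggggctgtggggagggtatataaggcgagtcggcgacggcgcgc
The element begins 65 bases before the RefSeq start, and GENCODE places the start of the gene upstream of it. The same spaced letters, searched on both strands, occurred in 39 of 32851 promoters (0.119%), and *Hspa5* was the only one of the 8 listed genes to hold them. Of 20 other ER folding genes with a listed promoter, 8 held them, and these elements are shown 5′ to 3′ with the fixed letters in capitals.
Calr: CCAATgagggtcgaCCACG
Canx: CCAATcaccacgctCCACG
Creld2: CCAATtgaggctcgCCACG
Derl3: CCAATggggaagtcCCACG
Dnajc3: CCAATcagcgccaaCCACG
Hsp90b1: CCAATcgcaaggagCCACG
Pdia6: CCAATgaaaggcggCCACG
Syvn1: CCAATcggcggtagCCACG
*Hsp90b1* holds the letters a second time on the other strand. The positions are chr8:84847075-84847093 (*Calr*), chr11:50325800-50325818 (*Canx*), chr15:88819520-88819538 (*Creld2*), chr10:75893242-75893260 (*Derl3*), chr14:118937827-118937845 (*Dnajc3*), chr10:86705638-86705656 (*Hsp90b1*), chr12:17266491-17266509 (*Pdia6*) and chr19:6046532-6046550 (*Syvn1*).

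The list of 24 genes of the ATF6 and IRE1 branches, chaperones and ER degradation gave small differences of mostly the same sign as *Hspa5*. Over all libraries 21 of 24 had a negative log2 fold change, with a median of -0.11 against -0.00 for all genes tested, of which 50.3% were negative. None of the 24 passed in edgeR in that comparison, and 9 had an unadjusted p under 0.05, where 12.4% of all genes did. Without both libraries that stood apart 19 of 24 were negative (median -0.08, with 50.4% of all genes negative), 8 had an unadjusted p under 0.05 (13.8% of all genes) and *Dnajb9* passed (2.44% of all genes). Of the plasma cell markers, 9 of 9 had a negative log2 fold change over all libraries (median -0.61), and 8 of 9 without both libraries (median -0.19), where *Ighm* passed in edgeR. At 8 weeks all 8 of them that were tested were negative (median -2.76), and *Jchain* passed in edgeR, whereas at 10 weeks 4 of 8 were negative (median 0.02) and at 5 or 30 weeks 3 of 8 (median 0.06). The 8-week level of *Jchain* was 1312 CPM in *WT* mouse 1, 77.7 and 81.0 CPM in the other *WT* mice and 21.8, 10.2 and 15.4 CPM in *iRhom2-/-*. The part of the plasma cell markers in the values of the list was not tested. The counts of negative values were 20 of 24 at 8 weeks (median -0.16), 19 of 24 at 10 weeks (median -0.13) and 18 of 24 at 5 or 30 weeks (median -0.10). *Dnajb9*, a BiP co-chaperone, measured 159 ± 32.0 CPM in *WT* and 129.6 ± 11.9 CPM in *iRhom2-/-* over all libraries (log2 fold change -0.29, SE 0.086, edgeR adjusted p = 0.111). *Syvn1*, the ubiquitin ligase of ER-associated degradation, was below the *WT* mean of its age set in 12 of 12 *iRhom2-/-* libraries (log2 fold change -0.19, SE 0.058, edgeR adjusted p = 0.118). *Manf*, a secreted ER stress protein, had a log2 fold change of -0.22 (SE 0.074, edgeR adjusted p = 0.184).

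The genes of this list with and without ERSE letters are set side by side, with no test of the difference. Over all libraries the 8 genes with the letters had log2 fold changes from -0.25 to -0.03 (median -0.13), and the 12 genes without them from -0.29 to 0.08 (median -0.12, 10 negative). The sensors *Atf6*, *Atf6b* and *Ern1*, which encodes IRE1, had log2 fold changes of 0.08 (SE 0.066), 0.08 (SE 0.050) and 0.02 (SE 0.071). *Ern1* was the one gene of the list that passed at a single age, with 50.7 ± 3.57 CPM in *WT* and 41.6 ± 0.613 CPM in *iRhom2-/-* at 8 weeks (n = 3 each; log2 fold change -0.31, SE 0.072, edgeR adjusted p = 0.0848), where 4.98% of all genes passed. At 5 or 30 weeks *Ern1* had the opposite sign, with all 6 *iRhom2-/-* libraries above the *WT* mean (log2 fold change 0.18, SE 0.083, unadjusted p = 0.0486 and adjusted p = 0.350 in edgeR).

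**Figure D3:**
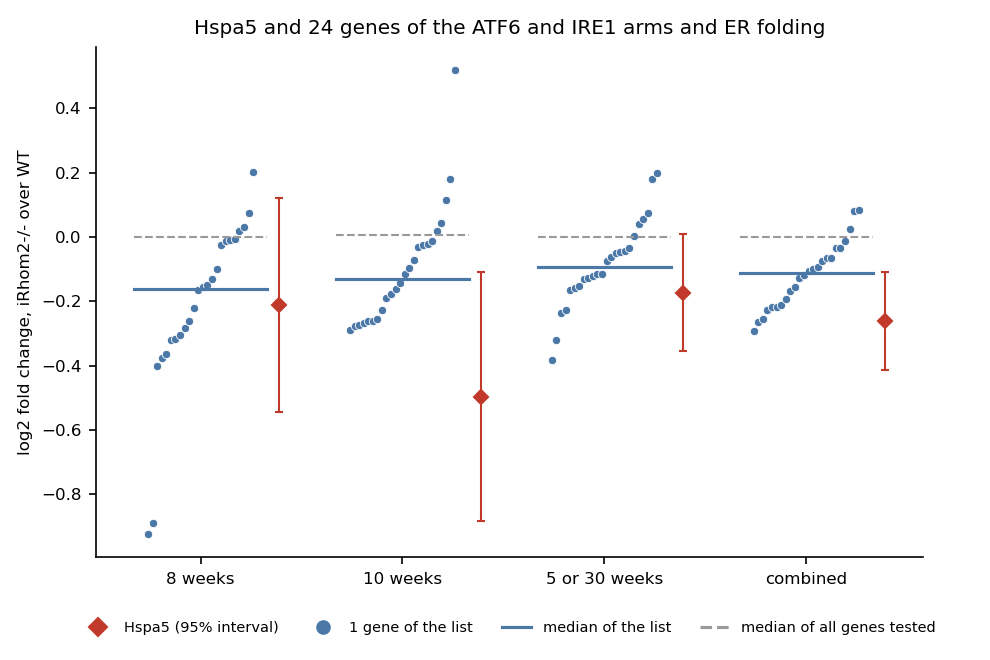
Log2 fold change, *iRhom2-/-* over *WT*, of *Hspa5* (diamonds with 95% intervals) and of 24 genes of the ATF6 and IRE1 branches and ER folding (points, ordered by value within each comparison), with the median of the list (solid line) and of all genes tested (dashed line). The median of the list was between -0.16 and -0.10 in every comparison, and *Hspa5* was below 0 in each.

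*Xbp1* (chr11:5520659-5525893, plus strand) encodes the factor that IRE1 activates by splicing its mRNA, and it is needed by cells that secrete much protein, such as gland and plasma cells. The 8-week levels were 284, 184 and 174 CPM in *WT* and 129, 148 and 153 CPM in *iRhom2-/-*. All 3 *iRhom2-/-* libraries were below the *WT* libraries (log2 fold change -0.60, SE 0.19, edgeR adjusted p = 0.153), and without *WT* mouse 1, which had the highest level, the log2 fold change was -0.34. The difference passed with DESeq2 (adjusted p = 0.0120) and with edgeR's likelihood ratio test (adjusted p = 0.0965). At 10 weeks it measured 204, 231 and 181 CPM in *WT* and 149, 334 and 145 CPM in *iRhom2-/-*, where mouse 2 alone was above *WT*. The log2 fold change at 10 weeks was 0.04 (SE 0.32) with that mouse and -0.50 without it. In the last set the *WT* libraries ran from 150.2 to 233 CPM (median 188) and the *iRhom2-/-* libraries from 161 to 193 CPM (median 172; log2 fold change -0.11, SE 0.097, and from -0.16 to -0.04 without 1 library).

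Over all libraries the log2 fold change of *Xbp1* was -0.20 (SE 0.12, edgeR adjusted p = 0.565). It was -0.31 with an adjusted p of 0.0866 without *iRhom2-/-* mouse 2 of 10 weeks, -0.12 with an adjusted p of 0.755 without *WT* mouse 1 of 8 weeks, and -0.24 with an adjusted p of 0.112 without both libraries that stood apart. The counts do not separate spliced from unspliced *Xbp1*.

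The level of *Xbp1* was set beside the summed markers of gland cells, a sum of which the secreted protein gene *Bpifb9b* made up most in the libraries where it was high. Over the 24 libraries the log2 level of *Xbp1* and the log2 sum of the 5 gland markers had a Pearson r of 0.77 (Spearman rho 0.69), with permutation p-values of 3e-05 and 0.00028 from 100000 resamples. The r was 0.64 without the 2 libraries farthest from the median of the marker sum. Within the age sets r was 0.78 at 8 weeks (n = 6), 0.80 at 10 weeks (n = 6) and 0.84 at 5 or 30 weeks (n = 12). This relation and 3 others were computed after the values were seen, and the adjusted p over these 4 was 0.00012. The sums of the gland markers did not overlap between the genotypes at 8 weeks, from 22811 to 64294 CPM in *WT* and from 1985 to 8196 CPM in *iRhom2-/-*, whereas they overlapped at 10 weeks, with the higher values in *iRhom2-/-* (5431 to 13971 CPM, median 5471, in *WT* and 8732 to 182526 CPM, median 9783), and at 5 or 30 weeks (12426 to 33313 CPM and 7224 to 22257 CPM). Without *Bpifb9b* the 8-week sums of the other 4 markers overlapped, at 5726, 4239 and 4466 CPM in *WT* and 4361, 1077 and 2232 CPM in *iRhom2-/-*. Of the 5 gland markers at 8 weeks, *Sox9* and *Aqp5* had log2 fold changes of 0.01 and 0.05, *Bpifa1* and *Dmbt1* had -0.98 and -4.32 without passing in edgeR (adjusted p = 0.370 and 0.123), and *Bpifb9b* passed with -4.08 (edgeR adjusted p = 0.0426). The median of the 5 was -0.98. The r of *Xbp1* with the sum of these 4 markers was 0.36 over all libraries (rho 0.40), and 0.51, 0.35 and 0.21 within the 3 sets, so the relation rests largely on *Bpifb9b*. The part of the gland markers in the *Xbp1* difference was not tested.

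With the sum of the plasma cell markers *Xbp1* had an r of 0.48 over the 24 libraries (rho 0.34, permutation p = 0.0193 and 0.102, adjusted p of r 0.0386). That relation was high at 8 weeks (r = 0.95) and at 10 weeks (r = 0.92) and not seen at 5 or 30 weeks (r = -0.09). It fell to 0.30 without the 2 extreme libraries, so it rests in part on those. The plasma cell sums did not overlap between the genotypes at 8 weeks, from 452 to 8332 CPM in *WT* and from 103 to 177 CPM in *iRhom2-/-*. They overlapped at 10 weeks (569 to 605 CPM and 304 to 1230.5 CPM) and at 5 or 30 weeks (93.9 to 747 CPM and 55.2 to 1343 CPM). The part of the plasma cell markers in the *Xbp1* difference was not tested. *Hspa5* showed an r of -0.06 with the gland markers (rho -0.02, permutation p = 0.797 and 0.943) and of 0.19 with the plasma cell markers (rho 0.14, permutation p = 0.372 and 0.514). These pooled values join sets of opposite sign. For *Hspa5* and the gland markers r was 0.53 at 8 weeks (n = 6), -0.60 at 10 weeks (n = 6) and 0.54 at 5 or 30 weeks (n = 12), and for the plasma cell markers it was 0.75, -0.34 and -0.26. Without *Bpifb9b* the values for the gland markers were 0.27, -0.25 and -0.01. The part of either marker list in the *Hspa5* difference was not tested.

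**Figure D4:**
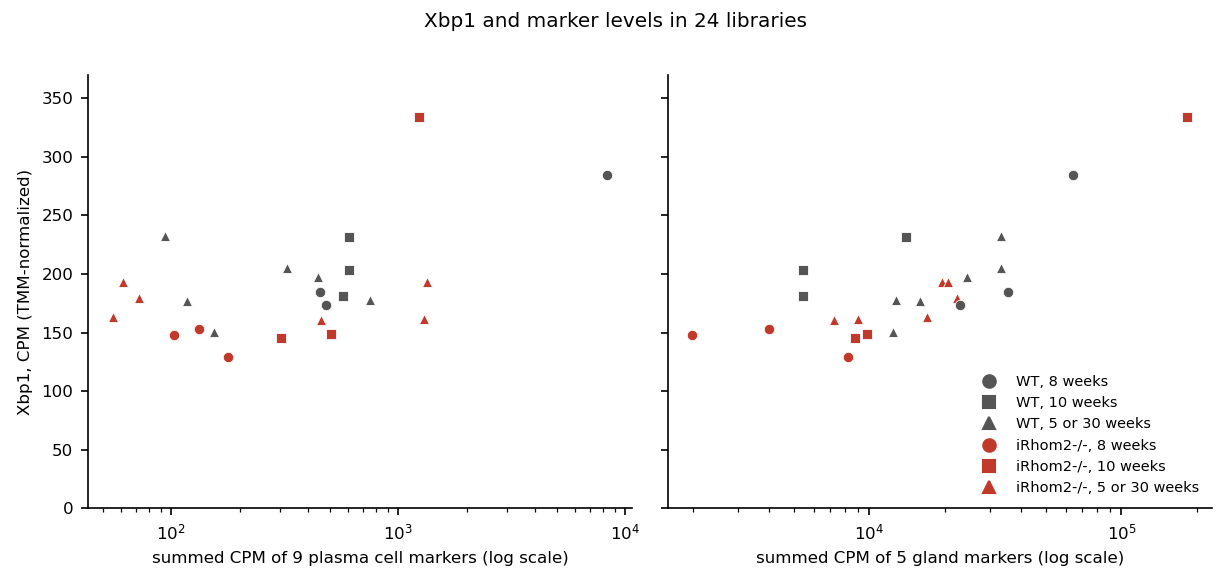
*Xbp1* (CPM, linear axis from 0) against the summed CPM of 9 plasma cell markers (left, log axis) and of 5 gland markers (right, log axis) in 24 libraries, with colour for genotype and shape for age set. *Xbp1* was highest, at 334 and 284 CPM, in the 2 libraries with the highest gland sums, and r over all libraries was 0.77 for the gland markers (0.36 without *Bpifb9b*) and 0.48 for the plasma cell markers.

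Setting each gene against the mOSN markers of the same library gave the differences beside the level of those neurons. At 8 weeks the mean log2 CPM of the 10 mOSN markers was higher in *iRhom2-/-* by 0.37, from 8.47 to 8.88 in *WT* and from 8.97 to 9.20 in *iRhom2-/-*. Of the 10, 8 had a positive log2 fold change there and 2 a negative one. The test in edgeR was passed by 3 of the 10 (*Cnga2*, *Cnga4* and *Ano2*), where 4.98% of all genes passed. At 10 weeks the same mean differed by -0.16 and at 5 or 30 weeks by -0.00. Relative to the markers, the 8-week log2 difference was 0.01 for *Rtp1*, -0.01 for *Rtp2*, 0.10 for *Reep1* and 0.13 for *Atf5*, where the differences of the genes alone had been between 0.34 and 0.49. Against *Omp* alone the same differences were -0.26, -0.28, -0.17 and -0.14, so the sign depended on the reference for *Rtp1*, *Reep1* and *Atf5*. Relative to the 10 markers but without *WT* mouse 1, the values in the same order were 0.08, 0.02, 0.12 and 0.19, so that of *Rtp2* changed sign. For *Atf4* the 8-week difference turned from 0.16 to -0.19 relative to the 10 markers and to -0.46 against *Omp*, and at 5 or 30 weeks it was -0.21 relative to the markers. Without *WT* mouse 1 the 8-week value of *Atf4* was -0.09 relative to the 10 markers. For *Eif2ak3*, *Ddit3* and *Xbp1* the 8-week difference relative to the 10 markers was -0.59, -0.70 and -0.91. Without *WT* mouse 1 these were -0.41, -0.64 and -0.56. The part of the mOSN markers in those 8-week differences was not tested further.

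Over all libraries, exact two-sided permutation within the age sets, not adjusted over the 9 genes, gave p = 0.193 for *Rtp1* relative to the markers (log2 difference 0.09), p = 0.941 for *Rtp2* (-0.00), p = 0.104 for *Reep1* (0.07) and p = 0.121 for *Atf5* (0.14). *Hspa5* was lower relative to the mOSN markers, with a log2 difference of -0.32 (exact permutation p = 0.0182), with -0.56 at 8 weeks, -0.34 at 10 weeks and -0.18 at 5 or 30 weeks. Without both libraries that stood apart the difference was -0.25 (exact permutation p = 0.0404), with -0.31 at 8 weeks and -0.32 at 10 weeks. Against *Omp* alone, the classical marker of mOSNs, the difference was -0.38 (exact permutation p = 0.0101). For *Eif2ak3*, *Ddit3*, *Atf4* and *Xbp1* the exact p was 0.202, 0.506, 0.273 and 0.188. Without both libraries that stood apart *Xbp1* had a difference of -0.29 (exact permutation p = 0.0257), with -0.56 at 8 weeks, -0.39 at 10 weeks and -0.10 at 5 or 30 weeks.

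**Figure D5:**
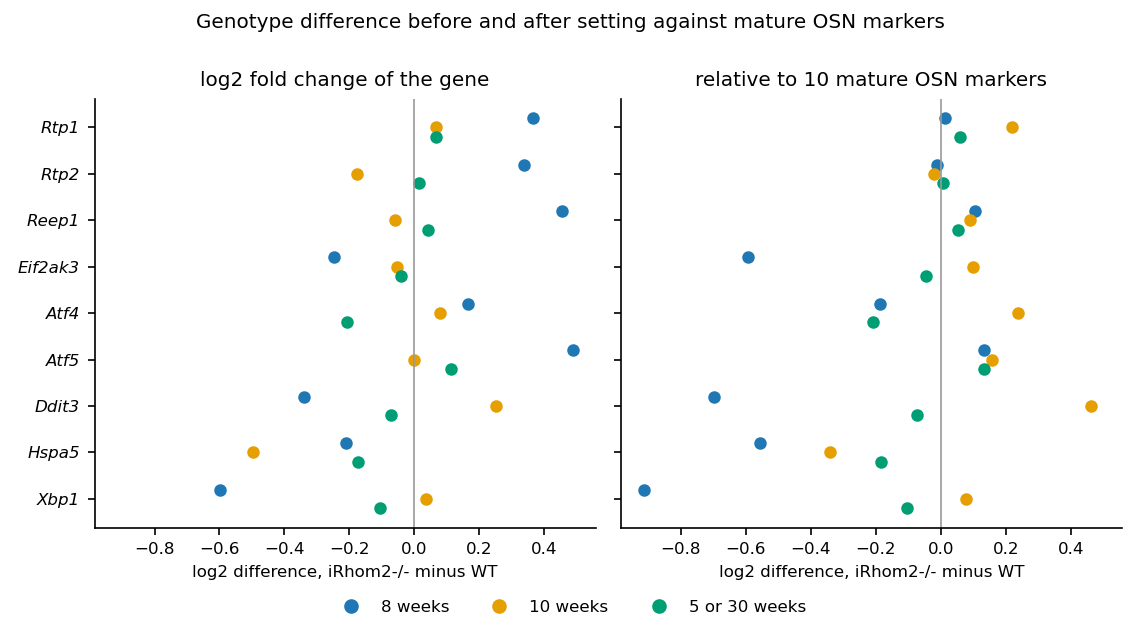
Difference between genotypes on the log2 scale for each gene and age set, as the log2 fold change of the gene (left) and relative to the mean of 10 mOSN markers in the same library (right). At 8 weeks *Rtp1* moved from 0.36 to 0.01 and *Rtp2* from 0.34 to -0.01, whereas *Hspa5* stayed below 0 in all 3 sets.

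The interaction of genotype and age set was tested for each gene, and none of the 9 passed in edgeR. Over all 3 sets, 10 of 20763 genes did (0.0482%). The smallest p among the 9 was that of *Rtp2* (unadjusted p = 0.0074, adjusted p = 0.270), and 4 of the 9 had an unadjusted p under 0.05 in that test, namely *Rtp1*, *Rtp2*, *Reep1* and *Atf4*, where 12.7% of all genes did. Without overlap of the genotypes were 6 of the 9 genes at 8 weeks (26.7% of all genes tested), 2 at 10 weeks (13.2%) and 0 at 5 or 30 weeks (1.66%).

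Per length of exon, the order of the levels was alike in both genotypes. *Atf5* led with 920 ± 245 CPM per kb in *WT* and 1033 ± 200.1 CPM per kb in *iRhom2-/-* (n = 12 each), and no other of the 9 genes came near. In *WT* it was followed by *Rtp1* (150.1 ± 14.4), *Hspa5* (136 ± 23.0), *Rtp2* (112 ± 18.9) and *Atf4* (103 ± 27.7 CPM per kb), neighbours whose spreads overlapped. *Xbp1* (61.5 ± 11.0), *Ddit3* (29.8 ± 7.44), *Reep1* (16.9 ± 2.53) and *Eif2ak3* (7.42 ± 1.05 CPM per kb) came after. In *iRhom2-/-* *Rtp2* (115 ± 15.1) and *Hspa5* (113 ± 13.6 CPM per kb) changed places, a difference within their spread.

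The genes of receptor export varied together from mouse to mouse. After centring log2 CPM within the 6 groups, Pearson r over the 24 libraries was 0.74 between *Rtp1* and *Rtp2*, 0.72 between *Rtp2* and *Reep1* and 0.61 between *Rtp1* and *Reep1*. *Atf5* went with *Ddit3* (0.73), *Atf4* (0.60) and *Rtp2* (0.58). *Xbp1* went against *Rtp1* (-0.58), and *Hspa5* was between -0.12 and 0.18 with each of the other 8 genes. These values describe libraries that share composition and depth, and centring does not remove age among the libraries of 5 or 30 weeks.

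Over 20378 genes, those most like *Rtp1* by the same measure were *Stx2* (r = 0.97), *Lingo1* (0.88) and *Klhl5* (0.85). Those most like *Atf5* were *Sh3bp5l* (0.97), *Igsf8* (0.96) and *Nat14* (0.96). For *Hspa5* they were *H2ac13* (0.81), the ER lectin chaperone gene *Calr* (0.80) and the disulfide isomerase gene *Pdia6* (0.79), both of which hold the ERSE letters shown above. For *Xbp1* they were *Gpd1* (0.90), *Soat1* (0.89) and *Gne* (0.88).

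The partners of the feedback in OR choice formed a list of 6 genes. All 6 had a positive log2 fold change over all libraries (median 0.16), none passed in edgeR, and 4 had an unadjusted p under 0.05, where 12.4% of all genes did and 50.3% of all genes had a negative log2 fold change. In the same comparison 8 of 10 mOSN markers (median 0.11) and 6 of 8 immature OSN markers (median 0.08) were positive. Without both libraries that stood apart *Ebf1* passed, where 2.44% of all genes did. *Lhx2*, a homeodomain factor needed for OR expression, had a log2 fold change of 0.17 (SE 0.066, edgeR adjusted p = 0.275), its cofactor *Ldb1* one of 0.18 (SE 0.073) and *Ebf1*, which binds OR promoters and enhancers, one of 0.15 (SE 0.056). At 8 weeks *Lhx2* passed, the 1 of the 6 to do so beside 4.98% of all genes, with 224 ± 6.66 CPM in *WT* and 283 ± 18.04 CPM in *iRhom2-/-* (n = 3 each; log2 fold change 0.32, SE 0.070, edgeR adjusted p = 0.0723), beside the mOSN marker difference of 0.37 given above.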

How the data were processed

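Bulk RNAseq of whole OE was analysed in 24 libraries, 1 per mouse. The authors prepared polyA, directional libraries, aligned reads with STAR to GRCm38 and used RSEM to assign reads to genes. In the deposited table the authors' estimated counts are whole and not normalized, and it covers 45706 genes, 3926 of them without a symbol. How they were rounded is not given in the sources used here. Its columns of the authors' own comparison (log2 fold change, likelihood ratio, p-value and FDR of edgeR) were not used. Columns were matched to mice by name, and 12 columns could be matched to genotype only.

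In R 4.3.3, edgeR 4.0.16 was run with filterByExpr, TMM and the quasi-likelihood test, with Benjamini-Hochberg adjustment over all genes tested and a threshold of 0.1. SE is the absolute log2 fold change divided by the square root of F. CPM are TMM-normalized, and log2 CPM used a prior count of 2. Levels per kb used the union of GENCODE exons. Promoters are those of RefSeq for GRCm38.p6. The script was tested on simulated data. The closest pair of libraries within a group had a chi-square per degree of freedom of 12.8, so none was counted as a duplicate. Replicates are separate mice. All mice are labelled male except 3. Sex was a term only in a repeat of the fit over all libraries. The comparisons within single age sets were made without it, so the part of sex in them was not tested.

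The 9 genes and the lists were chosen with earlier results of these data known. Genes named from lists are the 3 of smallest p in each direction over all libraries, and, for *Rtp1*, *Atf5*, *Hspa5* and *Xbp1*, the 3 with the highest correlation. The fits were repeated with DESeq2 1.42.0, with RLE scaling, unfiltered, with at least 10 counts in every library, the likelihood ratio test, a threshold of 0.05, 1 fit of all libraries, sex as a term, no age term, 8 and 10 weeks alone, a replicate block and fits without each library. Intervals of log2 fold changes come from the edgeR fit and include the spread between mice, whereas the floor of 3 counts covers counting error only.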

Additional observations from a re-analysis of the deposited data

Results flagged for a closer look

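For *Rtp2*, *Ddit3* and *Atf4* there was a pair of age sets in which all *iRhom2-/-* libraries of one lay above and all of the other below the *WT* mean, while the remaining set held libraries on both sides. *Rtp2* had a log2 fold change of 0.337 at 8 weeks, where all 3 *iRhom2-/-* libraries were above the *WT* mean, and of -0.18 at 10 weeks, where all 3 were below (edgeR interaction, adjusted p = 0.231). *Ddit3* had a log2 fold change of -0.341 at 8 weeks and of 0.25 at 10 weeks, each shown by all 3 libraries (edgeR interaction, unadjusted p = 0.0307, adjusted p = 0.3999), and the 10-week value ran from 0.05 to 0.57 without 1 library. *Atf4* had a log2 fold change of 0.164 at 8 weeks in all 3 libraries and of -0.21 at 5 or 30 weeks in all 6 (edgeR interaction, unadjusted p = 0.0187, adjusted p = 0.317), and relative to the mOSN markers both differences were negative (-0.19 and -0.21). The 8-week value relative to the markers was -0.09 without *WT* mouse 1. None of these interactions passed over all genes. In the 18 groups of 6 formed by the 9 genes and the genotypes, no library was an outlier by Dixon's test on CPM. On log2 CPM, a scale tried after seeing the data, 1 was, *WT* library 8 for *Atf5* (976 CPM, gap over range 0.696, past the 95% critical value, and 0.619 on CPM, short of it). Chance gives about 1 in 20 groups. The groups of 3 were not tested for outliers.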

How the results depend on the processing

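At 8 weeks 1 of the 9 genes was called, against 7 with DESeq2, 2 with the likelihood ratio test, 0 with RLE scaling, 0 at a threshold of 0.05 and 0 to 3 without 1 library. All genes called there numbered 962, against 2190 with DESeq2, 1055 with the likelihood ratio test, 837 with RLE scaling, 270 at 0.05, 404 in 1 fit of 24 libraries and 68 to 1300 without 1 library. At 10 weeks none of the 9 was called in any fit, and 37 genes were, against 289 with DESeq2, 58 without the filter, 178 with the likelihood ratio test and 13 to 105 without 1 library. At 5 or 30 weeks none of the 9 was called in any fit, and 198 genes were, against 868 with DESeq2, 119 without the filter, 51 at 0.05 and 52 to 241 without 1 library. Over all libraries *Hspa5* was called, against 0 of the 9 without the filter, at 0.05, with 8 and 10 weeks alone, without the age term or without both libraries that stood apart, and 0 to 1 without 1 library. The genes called there numbered 410, against 824 with DESeq2, 234 at 0.05, 106 with 8 and 10 weeks alone, 132 without the age term and 299 to 727 without 1 library. The cause of these differences was not tested.

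Mice that share a number correlated in their deviations by 0.117, 0.033 and 0.004 at 8 weeks and by 0.011, 0.216 and 0.111 at 10 weeks, so the numbers were not taken to pair them. With a replicate block 5 of the 9 genes (*Rtp1*, *Rtp2*, *Reep1*, *Atf5* and *Ddit3*) and 1454 genes in all were called at 8 weeks, 0 and 46 at 10 weeks, and 0 and 41 with 8 and 10 weeks together. The block turned the log2 fold change at 10 weeks to 0.00175 for *Atf5* and to -0.0813 for *Xbp1*. For *Atf4* over all libraries it was 0.12 with 8 and 10 weeks alone and 0.13 with the block there.

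Leaving out 1 library turned the sign only of values far from the threshold. At 10 weeks the log2 fold change ran from -0.0224 to 0.113 for *Rtp1*, from -0.132 to 0.0360 for *Reep1*, from -0.13 to 0.11 for *Atf5*, from -0.139 to 0.0406 for *Eif2ak3*, from -0.0730 to 0.198 for *Atf4*, from -0.50 to 0.23 for *Xbp1* and from -0.0838 to 0.401 for *Nupr1*. At 5 or 30 weeks it ran from -0.0200 to 0.0641 for *Rtp2* and from -0.0207 to 0.101 for *Reep1*. Of all repeats of a single gene's log2 fold change with an adjusted p, 893 kept direction and side of the threshold, 46 fell short of it, 22 newly passed it and 23 changed sign. *Trib3* over all libraries was at 0.77 (edgeR adjusted p = 0.210) with the replicate block for 8 and 10 weeks. Relative to the mOSN markers the exact permutation p of *Xbp1*, not adjusted over genes, went from 0.188 to 0.0257 without both libraries that stood apart (-0.29). Fits without both libraries that stood apart and sums without *Bpifb9b* were chosen after seeing the data. Each of the 9 genes lay far above 3 counts in every library.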

Other observations

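The direction of other cell markers differed between the age sets. Macrophage markers had a negative log2 fold change for 8 of 8 genes at 8 weeks (median -0.70) and for 8 of 8 at 5 or 30 weeks (median -0.30), and for 1 of 8 at 10 weeks (median 0.15), and none of them passed the test in edgeR, with 1, 4 and 1 of 8 at an unadjusted p under 0.05 in these sets, where 19.8%, 14.2% and 7.79% of all genes were. Over all libraries 8 of 8 were negative (median -0.28), and so they were without both libraries that stood apart (median -0.22), where 5 of 8 had an unadjusted p under 0.05 (13.8% of all genes) and *Lyz2* passed in edgeR (2.44% of all genes). The 10-week sum of the 8 genes was 298, 720.5 and 323 CPM in *iRhom2-/-* and 291, 350.3 and 324 CPM in *WT*, so it was high in *iRhom2-/-* mouse 2 alone, a library that stood apart. The 8-week sum was 297, 169 and 195 CPM in *iRhom2-/-* and 612, 291 and 353 CPM in *WT*. It was highest in *WT* mouse 1, the other library that stood apart. All 5 sustentacular markers were positive at 8 weeks (median 0.19) and negative at 10 weeks (median -0.19). All 4 horizontal basal cell markers were positive at 10 weeks (median 0.28).

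The libraries of 5 or 30 weeks fell into separate levels of *Gap43*, a marker of immature OSNs. *Gap43* was 167, 144 and 222 CPM in *WT* columns 7 to 9 and 62.8, 66.4 and 67.3 CPM in *WT* columns 10 to 12. In *iRhom2-/-* it was 65.5, 75.6 and 48.2 CPM in columns 7 to 9 and 247, 214 and 198 CPM in columns 10 to 12. The plasma cell gene *Jchain* was 3.25, 16.8 and 7.57 CPM and 57.5, 74.9 and 114 CPM in the same *WT* columns, and 229, 80.8 and 251 CPM and 0.703, 0.311 and 0.790 CPM in the *iRhom2-/-* columns. In the same libraries *Reep1* was 57.4, 65.5 and 59.5 CPM and 82.0, 86.6 and 84.6 CPM in *WT*, and 81.7, 85.4 and 72.8 CPM and 70.9, 66.0 and 69.2 CPM in *iRhom2-/-*. No age was assigned to any column from these values.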
